A study of Mus musculus with 12 samples.

Results

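Genes that mark the fibroblast lineages of mouse dermis were followed across neonatal skin of 2 labelled sites and 2 ages. Chosen with earlier results of these data known, the 8 genes were Lrig1, Dpp4, Itga8, Ntn1, Pdgfra, Thy1, Cd34 and Dpt. They were named for their use as papillary, reticular or pan-fibroblast markers. They were read from every probe set that the platform annotation gives to exactly 1 of them, which found 17 probe sets for 8 of the 18193 genes measured. The arrays were 12 Affymetrix MG430.2A arrays of 1 colour, in 4 groups of 3. The P5 Tail and P5 Back groups were labelled as tail and back dermis of mice at 5 days after birth, and the P1 Tail and P1 Back groups as the same sites at 1 day. All mice were of the C57Bl6/CBA F1 strain with no treatment named. According to the methods, which describe the P1 samples, tail skin was loosened in EDTA and back skin in dispase and trypsin before the dermis was taken off and digested to cells, and RNA came from triplicate mice. Site and solution therefore cannot be told apart, and the RNA is that of all dermal cells, not of sorted fibroblasts.

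In the dermis, a papillary lineage lies under the epidermis and gives rise to the arrector pili muscle, the dermal papilla and the dermal sheath of the hair follicle. A reticular lineage lies deeper, makes most of the fibrillar matrix and gives rise to fat cells of the hypodermis. Around birth the lineages can be told apart by surface proteins. Lrig1 and Dpp4 mark papillary fibroblasts, alpha8 integrin (Itga8) marks papillary fibroblasts and cells of the follicle and its muscle, and Ntn1 is used as a papillary marker. Pdgfra, Thy1, Cd34 and Dpt are found more widely across dermal fibroblasts. Several are not limited to fibroblasts: Lrig1 also marks epidermal stem cells, Thy1 is carried by T cells, and Cd34 by endothelial cells and by keratinocytes of the follicle bulge. In bulk RNA, fewer cells of a type and less RNA per cell cannot be told apart.

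The site labels went against positional genes. Hoxc8, a Hox gene of the trunk, was higher in arrays labelled tail than in arrays labelled back, by 2.93 ± 0.14 at P5 and 2.78 ± 0.14 at P1 (log2 difference ± SE, n = 3 arrays per group), and Hoxd11, a Hox gene of the hind end of the body, was lower, by -3.28 ± 0.17 and -3.09 ± 0.17. Adipoq, made by fat cells, differed by 0.79 ± 0.28 at P5 (adjusted p = 0.12) and 5.23 ± 0.28 at P1 (adjusted p = 5.0e-07). Directions below are those of the labels, tail minus back or P5 minus P1. For fat genes this direction opposes the one the study describes. If the 2 site names were exchanged at both ages, every site difference and every interaction would change sign, and the 2 age comparisons would exchange names. The deposited values are log2 values centred on the median of each probe set over the 12 arrays, so they give differences between arrays and no levels, and no gene is set against another. The array P5 Tail 2 stood apart from the others, with a mean absolute value over all probe sets of 0.365 against 0.149 to 0.226 for the other 11. The P1 Back arrays held uneven values of 13 cartilage genes, with list means of 2.09 in replicate 1 and 1.78 in replicate 6, against 0.05 in replicate 5. The means of those genes were -0.23 to -0.18 in P1 Tail, -0.34 to 0.06 in P5 Tail and -0.07 to 0.84 in P5 Back. List means of 12 skeletal muscle genes were uneven in both back groups. They were 0.39, -1.55 and 0.69 in P1 Back 1, 5 and 6, and -1.55, -1.40 and 0.95 in P5 Back 1, 2 and 3. In P1 Tail they were 0.51 to 1.77 and in P5 Tail -0.73 to -0.20. The part of muscle in the marker values was not tested.

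Lrig1 encodes a leucine-rich repeat membrane protein that holds back signalling of ErbB receptors. Its gene lies at chr6:94604529-94700298 (GRCm38.p6, RefSeq) and 3 probe sets read it. On probe set 1449893_a_at the P5 Tail arrays read 0.41, 0.59 and 0.74, against -0.50, -0.79 and -0.78 in the P5 Back arrays. The P1 Tail arrays read 0.39, 0.24 and 0.09, against -0.09, -0.12 and -0.18 in the P1 Back arrays. The arrays labelled tail lay above those labelled back with no overlap at both ages, and the gap was wider at P5. The P5 difference was 1.27 ± 0.13 (95% interval 0.98 to 1.56), a 2.41-fold difference, with an adjusted p of 0.00013 in limma. The other probe sets, 1434210_s_at and 1419928_at, differed at P5 by 1.22 ± 0.15 (adjusted p = 0.00041) and 0.90 ± 0.15 (adjusted p = 0.0041). At P1 the 3 differences were 0.27 to 0.42 and none passed the threshold of 0.05 (adjusted p = 0.20 to 0.51). The groups did not overlap on any of the 3 at either age, nor on 18.2% of all probe sets at P5 and 27.7% at P1. Of the 3, 1434210_s_at and 1449893_a_at ran nearly alike over the 12 arrays (r = 0.99). Leaving out any 1 of the 6 P5 arrays kept the P5 call on all 3 probe sets, with a highest adjusted p of 0.025.

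Dpp4 encodes CD26, a membrane peptidase that cuts dipeptides from the ends of chemokines and hormones, and lies at chr2:62330073-62412315. Its probe set 1416697_at read 0.12, 0.50 and 0.85 in P5 Tail, against -0.34, -0.15 and -0.06 in P5 Back. It read 0.06, 0.22 and 0.12 in P1 Tail, against -0.81, -0.58 and -0.51 in P1 Back. The groups did not overlap at either age, and the P1 Back arrays were the lowest of all. Of all probe sets, 18.2% did not overlap between the sites at P5 and 27.7% at P1. The difference was 0.67 ± 0.17 at P5 (adjusted p = 0.037) and 0.76 ± 0.17 at P1 (adjusted p = 0.028), 1.60-fold and 1.70-fold. A second probe set, 1459973_x_at, differed at P5 by 0.93 ± 0.24 (adjusted p = 0.040) and at P1 by 0.37 ± 0.24 (adjusted p = 0.58). The probe set 1441342_at differed at P5 by 0.61 ± 0.19 (adjusted p = 0.10). The fourth, 1438279_at, ran the other way at P5, at -0.24 ± 0.21 (adjusted p = 0.59), and its correlation with the other 3 over the 12 arrays was -0.09 to 0.43. The probe sets of Dpp4 thus disagreed, and its mean over the 4 was called at P5 alone. These calls were narrow: that of 1416697_at was lost at P1 without any 1 of the 6 arrays (adjusted p = 0.065 to 0.13), and at P5 without any 1 of the 6 P5 arrays other than P5 Tail 2 (adjusted p = 0.064 to 0.15). For 1459973_x_at the P5 call was lost without P5 Tail 2 or 3 (adjusted p = 0.11 and 0.051) and without P5 Back 1 or 2 (adjusted p = 0.17 and 0.11).

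Itga8 encodes the alpha8 chain of an integrin that binds nephronectin in the basement membrane and lies at chr2:12106632-12301985. It was the 1 gene of the 8 with a call below 0 between the sites. Probe set 1427489_at read -0.02, -0.23 and 0.02 in P5 Tail, against 0.49, -0.37 and 0.12 in P5 Back. It read -0.12, -0.63 and -0.18 in P1 Tail, against 0.64, 0.73 and 0.44 in P1 Back. The groups overlapped at P5 and were apart at P1, with every P1 Back array higher. The P1 groups were apart on 27.7% of all probe sets. The site difference was -0.16 ± 0.20 at P5 (adjusted p = 0.73) and -0.91 ± 0.20 at P1 (adjusted p = 0.027). The interaction, the P5 site difference minus the P1 site difference, was 0.76 ± 0.28 with an adjusted p of 0.26, so a difference between the ages was not shown. The second probe set, 1454966_at, was lower by -0.53 ± 0.23 at P1 with no call (adjusted p = 0.36), and its groups overlapped. The call was lost without any 1 of the 6 P1 arrays other than P1 Tail 4 (adjusted p up to 0.12).

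Ntn1 encodes netrin 1, a secreted guidance cue, and lies at chr11:68209364-68386826. Its probe set 1422987_at read 1.12, 0.02 and 0.58 in P5 Tail, -0.05, -0.09 and -0.21 in P5 Back, 0.40, -0.01 and 0.01 in P1 Tail and 0.02, -0.10 and -0.11 in P1 Back. The highest value was that of P5 Tail 2, the array that stood apart, and the 3 P5 Tail arrays spanned more than 1 unit. The P5 difference of 0.69 ± 0.22 did not pass (95% interval 0.22 to 1.15, adjusted p = 0.098), and neither did that of 1454974_at, 0.28 ± 0.18 (adjusted p = 0.45). At P1 the 2 differences were 0.20 and 0.21. Without P5 Tail 3, the lowest of its group, 1422987_at passed at P5 (0.96, adjusted p = 0.0097), and without P5 Tail 2, the highest, its difference was 0.42 (adjusted p = 0.22).

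Dpt encodes dermatopontin, a small matrix protein that binds decorin and helps collagen fibrils to assemble, and lies at chr1:164796663-164824274. Its single probe set, 1418511_at, read 0.23, 0.21 and 0.21 in P5 Tail, against -0.71, -0.50 and -0.20 in P5 Back. It read 0.66, 0.20 and 0.59 in P1 Tail, against -0.40, -0.60 and -0.52 in P1 Back. All 6 arrays labelled tail lay above all 6 labelled back, and with values centred on the median the signs hold no levels. The sites did not overlap on 18.2% of all probe sets at P5 and 27.7% at P1. The difference was 0.69 ± 0.15 at P5 (95% interval 0.36 to 1.02, adjusted p = 0.020) and 0.99 ± 0.15 at P1 (95% interval 0.66 to 1.31, adjusted p = 0.0029), 1.61-fold and 1.98-fold. The P1 call was kept without any 1 of the 6 P1 arrays, with a highest adjusted p of 0.022. At P5 it was lost without P5 Back 1 (adjusted p = 0.096) or P5 Back 2 (adjusted p = 0.077).

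The other genes of the broad set showed no site call. Pdgfra, a receptor of PDGF ligands, lies at chr5:75151322-75198206 and its 3 probe sets differed by -0.33 to 0.17 at P5 and -0.23 to -0.01 at P1. Thy1, a surface protein held by a lipid anchor, lies at chr9:44043384-44048579 and differed by -0.04 ± 0.19 at P5 (95% interval -0.45 to 0.37) and -0.08 ± 0.19 at P1 (95% interval -0.49 to 0.33). Cd34, a surface sialomucin, lies at chr1:194938821-194961292. It differed by 0.17 ± 0.20 at P5 (95% interval -0.25 to 0.60) and 0.20 ± 0.20 at P1 (95% interval -0.23 to 0.62). These intervals reach 0.45 to 0.62 in size, and that of Pdgfra 1421916_at reached 0.72 at P5, so the data do not show equal expression.

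**Figure D1:**
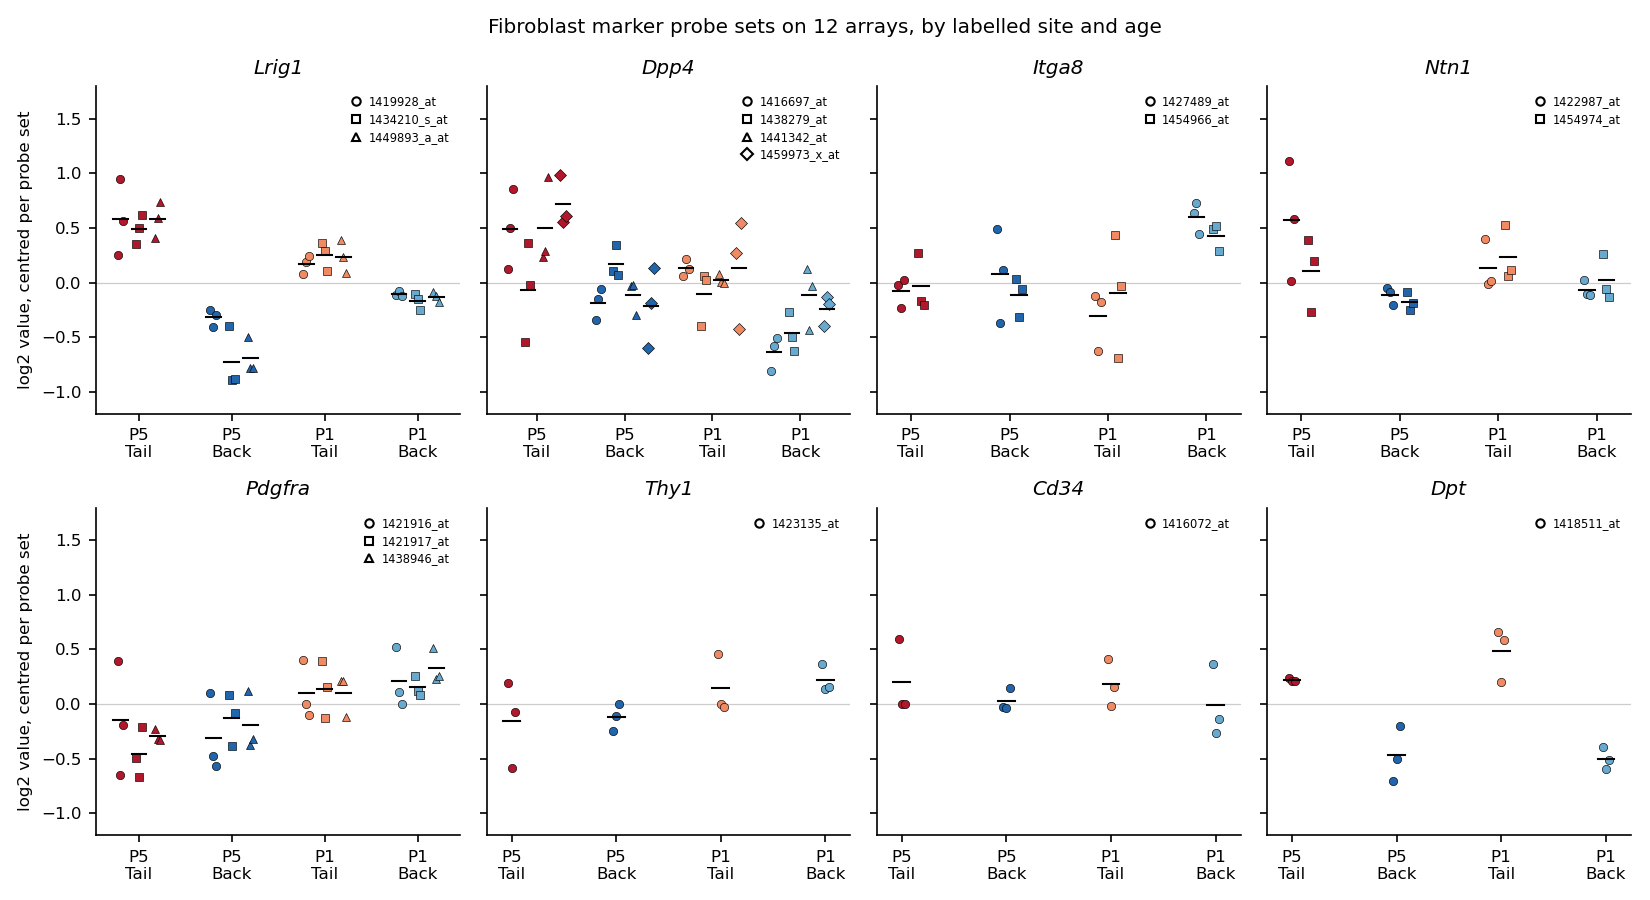
Centred log2 values of the 17 probe sets of 8 fibroblast genes, 1 panel per gene, with the 4 labelled groups along the x axis and 3 arrays per group. Each point is 1 array, marker shapes are probe sets, and bars are group means. The Lrig1 points of the P5 Tail and P5 Back groups do not overlap on any of its 3 probe sets, nor do these groups on 18.2% of all probe sets. The Thy1 and Cd34 points of the sites overlap at both ages.

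Over the whole set, 6 of 17 probe sets were called between the sites at P5, all higher in P5 Tail, where 4.76% of the 45037 probe sets tested were called and 2.94% were called higher. At P1, 3 of 17 were called, 2 higher and 1 lower in P1 Tail, where 2.72% of all probe sets were called, 1.57% higher and 1.15% lower. The groups did not overlap on 8 of 17 probe sets at P5, all with P5 Tail above, and on 7 of 17 at P1, 5 above and 2 below. Over all probe sets the share with no overlap was 18.2% at P5 and 27.7% at P1. At an unadjusted p under 0.05 the counts were 8 at P5 and 6 at P1, beside 17.9% and 12.6% of all probe sets. The median difference of the 17 was 0.28 at P5 and 0.20 at P1, beside -0.03 and -0.02 over all probe sets. With probe sets averaged per gene, Lrig1, Dpp4 and Dpt were called at P5 and Dpt alone at P1, where 6.91% and 3.97% of genes were called. Without P1 Back 1 and 6, the arrays high in cartilage genes, 1 P1 Back array remained, which the fit assumes to vary like the other groups. The P1 differences were then 1.08 for Dpt (adjusted p = 0.12), 0.71 for Dpp4 (adjusted p = 0.55) and -1.04 for Itga8 (adjusted p = 0.32), close to those with all arrays but past the threshold in none.

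**Figure D2:**
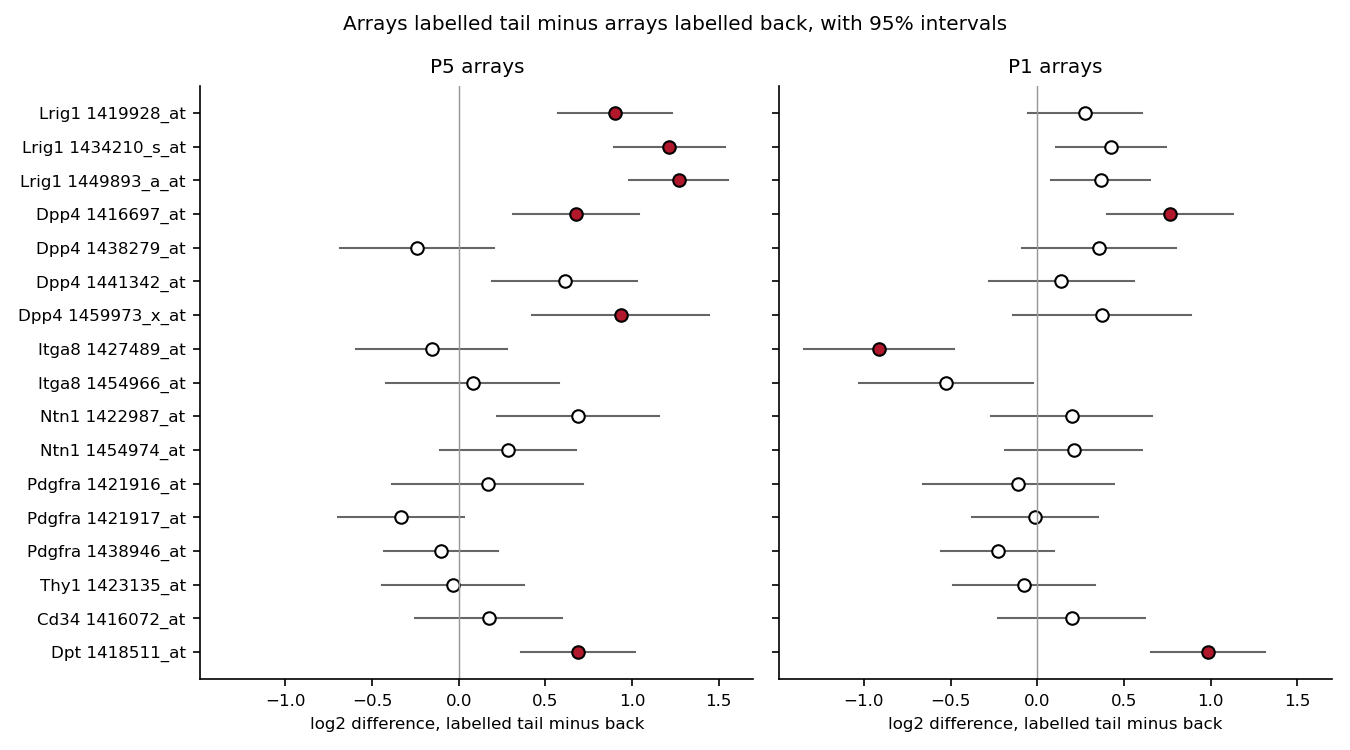
Log2 difference of arrays labelled tail minus arrays labelled back for each of the 17 probe sets, at P5 in the left panel and at P1 in the right, with 95% intervals from limma. Filled points have an adjusted p under 0.05: 6 at P5, all above 0, and 3 at P1, of which Itga8 1427489_at lies below 0.

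The start regions of Lrig1, Dpp4 and Dpt, the genes called higher in P5 Tail, follow as RefSeq gives them (GRCm38.p6), from 250 bases before the start to 50 bases from it on, 5′ to 3′ on the gene's strand. Such regions were matched for 6 of the 8 genes. The start used for Lrig1 and Dpp4 lies inside the gene span given above, and that of Dpt is the first base of its span. Capitals mark matches, on either strand, of the TATA box letters TATAAA or the GC box letters GGGCGG. The Tcf/Lef core letters CTTTGA were searched too.
Lrig1, chr6:94700096-94700395, minus strand: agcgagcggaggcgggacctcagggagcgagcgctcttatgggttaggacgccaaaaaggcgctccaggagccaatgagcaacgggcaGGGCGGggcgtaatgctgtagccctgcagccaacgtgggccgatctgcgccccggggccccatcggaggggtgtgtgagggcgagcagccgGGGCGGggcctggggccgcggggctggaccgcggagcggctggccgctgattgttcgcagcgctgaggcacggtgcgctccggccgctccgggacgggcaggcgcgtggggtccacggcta
Dpp4, chr2:62412182-62412481, minus strand: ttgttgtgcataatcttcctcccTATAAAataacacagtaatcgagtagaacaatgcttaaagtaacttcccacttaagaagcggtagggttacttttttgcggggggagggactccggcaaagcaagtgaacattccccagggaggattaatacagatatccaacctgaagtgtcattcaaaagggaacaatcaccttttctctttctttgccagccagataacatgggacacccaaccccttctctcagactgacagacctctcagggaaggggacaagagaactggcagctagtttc
Dpt, chr1:164796413-164796712, plus strand: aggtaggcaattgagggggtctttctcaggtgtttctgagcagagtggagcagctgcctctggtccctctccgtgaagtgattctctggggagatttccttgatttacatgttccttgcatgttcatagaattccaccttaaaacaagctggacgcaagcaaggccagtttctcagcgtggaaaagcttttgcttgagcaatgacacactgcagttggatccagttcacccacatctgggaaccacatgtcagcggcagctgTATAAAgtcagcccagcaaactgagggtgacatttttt
Lrig1 held 2 GC box matches, with first bases at -162 and -71 from the start, and 73.0% of its bases were G or C. Dpp4 and Dpt held 1 TATA box match each, at -227 and 13, and were 45.3% and 48.7% G or C. No 2 matches overlapped. CTTTGA was not in any of the 6 windows matched. Of 32851 RefSeq windows of the same 300 bases, 35.7% held GGGCGG, 13.6% TATAAA and 16.0% CTTTGA. The matches describe letters and not bound sites, and the 3 windows did not share a motif of those searched.

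The second question was whether the markers differed between P5 and P1 within a site. In arrays labelled back, 1 of 17 probe sets was called, where 2.30% of all probe sets were called and 1.05% were called lower: Lrig1 1449893_a_at was lower at P5 by -0.56 ± 0.13 (adjusted p = 0.044). Its sister 1434210_s_at was lower by -0.55 ± 0.15 without a call (adjusted p = 0.078), and 1419928_at by -0.21 ± 0.15. On all 3 the P5 Back arrays lay below the P1 Back arrays, and these groups did not overlap on 24.8% of all probe sets. In arrays labelled tail none of 17 was called, where 3.12% of all probe sets were called, and 6 had an unadjusted p under 0.05, as had 18.0% of all probe sets. There the Lrig1 differences were 0.24 to 0.42 (adjusted p = 0.17 to 0.43). That of 1419928_at passed without P5 Tail 2 (0.58, adjusted p = 0.031), while without P1 Tail 4 or P1 Tail 6 no marker probe set passed. The group means of 1449893_a_at were therefore ordered P5 Tail (0.58), P1 Tail (0.24), P1 Back (-0.13) and P5 Back (-0.69), and only the last 2 neighbours in that order passed the test of their difference. That call was lost when any 1 of the 6 back arrays other than P5 Back 1 was left out (adjusted p up to 0.21).

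All 3 Pdgfra probe sets pointed down with age in both sites. On 1438946_at the values were -0.23, -0.32 and -0.33 in P5 Tail, 0.12, -0.37 and -0.32 in P5 Back, 0.21, 0.21 and -0.12 in P1 Tail and 0.51, 0.23 and 0.25 in P1 Back. Every P5 array lay below every P1 array of the same labelled site. The 2 ages did not overlap on 17.1% of all probe sets in tail and 24.8% in back. The differences were -0.40 ± 0.15 in arrays labelled tail (adjusted p = 0.19) and -0.52 ± 0.15 in arrays labelled back (adjusted p = 0.11). On 1421917_at the tail difference was -0.60 ± 0.17 (adjusted p = 0.078). Over the 3 probe sets the differences were -0.60 to -0.25 in tail and -0.52 to -0.28 in back, and none passed the threshold with all arrays. The tail difference of 1421917_at passed without P1 Tail 5 (-0.73, adjusted p = 0.048) or P5 Tail 4 (-0.72, adjusted p = 0.038). The back difference of 1438946_at passed without P5 Back 1 (-0.68, adjusted p = 0.043). These were picked as the fits in which a probe set passed. In tail no marker probe set passed without P1 Tail 4 or P1 Tail 6. In back none passed when any 1 array other than P5 Back 1 was left out.

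Thy1 read 0.19, -0.59 and -0.07 in P5 Tail, -0.25, -0.11 and 0.00 in P5 Back, 0.46, 0.00 and -0.03 in P1 Tail and 0.36, 0.14 and 0.16 in P1 Back. The P5 Back arrays lay below the P1 Back arrays and the tail groups overlapped, and the differences of -0.34 ± 0.19 in back and -0.30 ± 0.19 in tail had adjusted p of 0.61 and 0.44. Cd34 read 0.60, 0.00 and 0.00 in P5 Tail, -0.03, -0.04 and 0.14 in P5 Back, 0.42, -0.01 and 0.15 in P1 Tail and 0.36, -0.27 and -0.13 in P1 Back. Its age differences were 0.02 ± 0.20 in tail and 0.04 ± 0.20 in back. Dpt differed with age by -0.27 ± 0.15 in tail and 0.03 ± 0.15 in back. For Dpp4 1416697_at the 2 age differences were 0.36 ± 0.17 in tail and 0.45 ± 0.17 in back (adjusted p = 0.28 each). Itga8 1427489_at differed by 0.23 ± 0.20 in tail and -0.52 ± 0.20 in back, and Ntn1 1422987_at by 0.44 ± 0.22 and -0.05 ± 0.22, with no call. Over all 17 probe sets the groups did not overlap on 6 in tail, 4 above and 2 below, and on 8 in back, 2 above and 6 below, beside 17.1% and 24.8% of all probe sets.

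**Figure D3:**
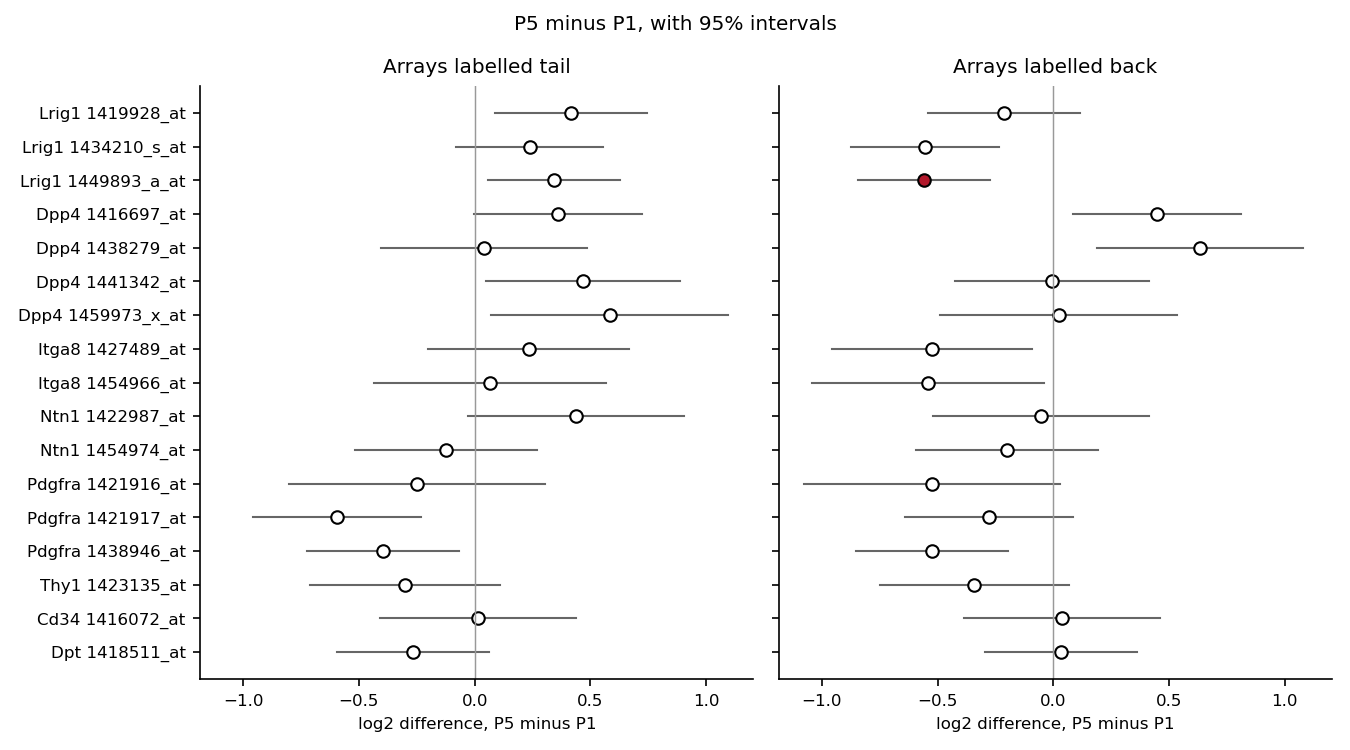
Log2 difference of P5 minus P1 for each of the 17 probe sets, in arrays labelled tail in the left panel and arrays labelled back in the right, with 95% intervals from limma. The 1 filled point, Lrig1 1449893_a_at in arrays labelled back at -0.56, has an adjusted p under 0.05, and all 3 Pdgfra probe sets lie below 0 in both panels.

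Whether the site difference itself changed with age was tested by the interaction. It was called on 1 of 17 probe sets, where 1.73% of all probe sets were called, 1.09% higher. For Lrig1 1449893_a_at the site difference was larger at P5 than at P1 by 0.90 ± 0.19 (95% interval 0.50 to 1.31, adjusted p = 0.030). The other Lrig1 probe sets had interactions of 0.79 ± 0.21 (adjusted p = 0.086) and 0.63 ± 0.22 (adjusted p = 0.21). For Dpt the interaction was -0.30 ± 0.22 (adjusted p = 0.63) and for Dpp4 1416697_at -0.09 ± 0.24 (adjusted p = 0.93). The Lrig1 call was lost when P1 Tail 6, P5 Back 2, P5 Back 3 or any 1 P1 Back array was left out (adjusted p up to 0.099).

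Genes of other cell types moved with some of these markers in some comparisons. Between the sites 6.91% of all genes were called at P5 and 3.97% at P1. Of 12 keratinocyte genes, 4 were higher in P5 Tail than in P5 Back, led by Col17a1 (1.57 ± 0.19), Krt15 (1.33 ± 0.17) and Krt14 (1.11 ± 0.17), and none was lower. The mean of the 12 was 0.13 to 0.40 in P5 Tail, -0.62 to -0.30 in P5 Back, -0.69 to 0.10 in P1 Tail and 0.13 to 0.37 in P1 Back. At P1, 2 were lower in P1 Tail (Col17a1 by -0.96 ± 0.19 and Krt5 by -0.59 ± 0.14), while the 3 Lrig1 probe sets read 0.27 to 0.42 higher there with no call. With age 4 of the 12 rose in arrays labelled tail and 7 fell in arrays labelled back, where 5.30% and 4.25% of all genes were called. The interaction was called on 5 of the 12, beside 2.87% of all genes. The keratinocyte genes thus ran with Lrig1 at P5 and with age, and against it at P1, and their part in the Lrig1 values was not tested. Of 11 adipocyte genes, 4 were higher in P5 Tail and 9 in P1 Tail, none lower. Their mean was 0.11 to 0.49 in P5 Tail, -0.46 to -0.09 in P5 Back, 0.96 to 1.39 in P1 Tail and -0.99 to -0.90 in P1 Back, apart in the same direction as Dpt at both ages. Their part in the Dpt values was not tested. Cd3g, of the T cell receptor complex, was higher in P5 Tail by 1.57 ± 0.21 and Cd3d by 0.50 ± 0.14, among 7 T cell genes, while Thy1 differed there by -0.04. The 12 endothelial genes, a list that bears on Cd34, had a median site difference of -0.03 at P5 and 0.11 at P1. As the values are centred, none of these lists can be said to be at or near zero.

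**Figure D4:**
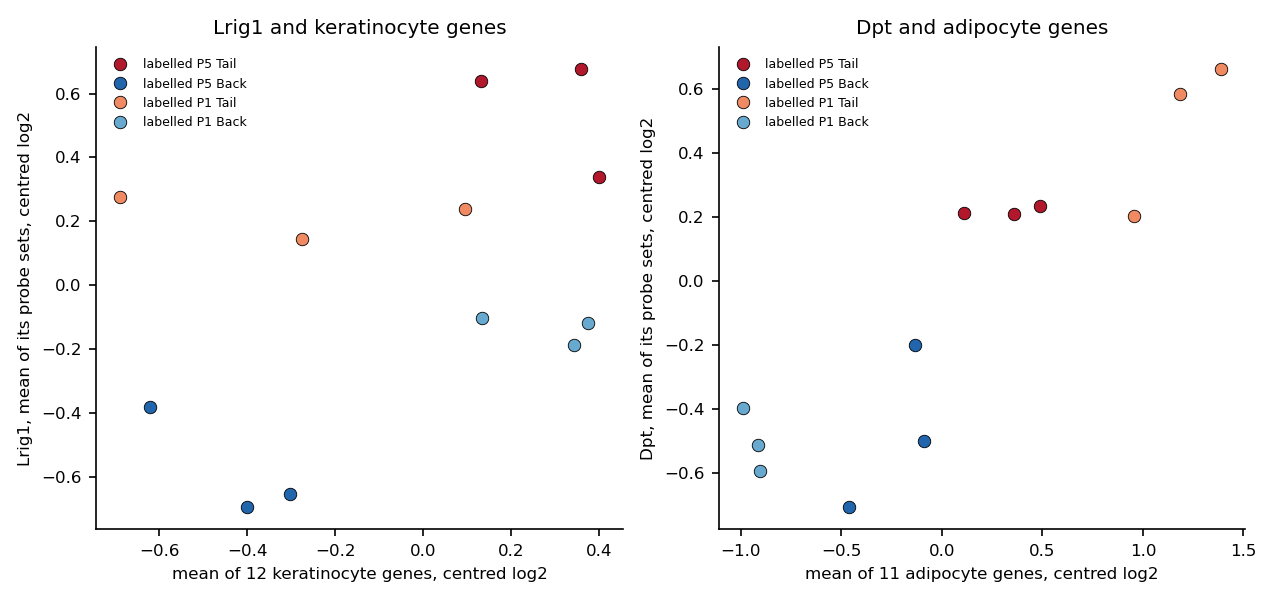
Mean centred log2 value of Lrig1 over its 3 probe sets against the mean of 12 keratinocyte genes, and value of Dpt against the mean of 11 adipocyte genes, with 1 point per array coloured by labelled group. The P5 Tail arrays lie to the upper right of the P5 Back arrays in both panels, and the P1 groups of the Lrig1 panel run the other way along the keratinocyte axis.

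Lists of other lineage genes, which leave out the 8 markers, held genes in both directions. Over all genes 6.91% were called between the sites at P5, 3.97% at P1, 5.30% with age in tail and 4.25% with age in back. Of 22 papillary genes, 4 were higher and 2 lower in P5 Tail than in P5 Back, and 5 were higher and 1 lower in P1 Tail than in P1 Back. Rspo1, a secreted activator of Wnt signalling, was higher by 1.30 ± 0.20 at P5 and 1.48 ± 0.20 at P1, and Tbx15, a transcription factor of dermal patterning, by 0.65 ± 0.14 and 1.59 ± 0.14. Crabp1, which binds retinoic acid in the cell, was lower by -1.03 ± 0.22 and -1.87 ± 0.22. The median difference of the list was -0.17 at P5 and 0.07 at P1, beside -0.02 and -0.04 over all genes. Of 19 reticular and hypodermal genes measured, 2 were higher and 7 lower in P5 Tail, and 3 were higher and 2 lower in P1 Tail. Mfap5, of the elastic microfibrils, was lower by -1.90 ± 0.36 at P5, Mgp, an inhibitor of calcification, by -1.56 ± 0.31 and Igfbp3, a carrier of insulin-like growth factors, by -1.34 ± 0.20. Cd36, a fatty acid receptor, was higher at P1 by 1.61 ± 0.15. The list medians were -0.37 at P5 and 0.12 at P1.

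**Figure D5:**
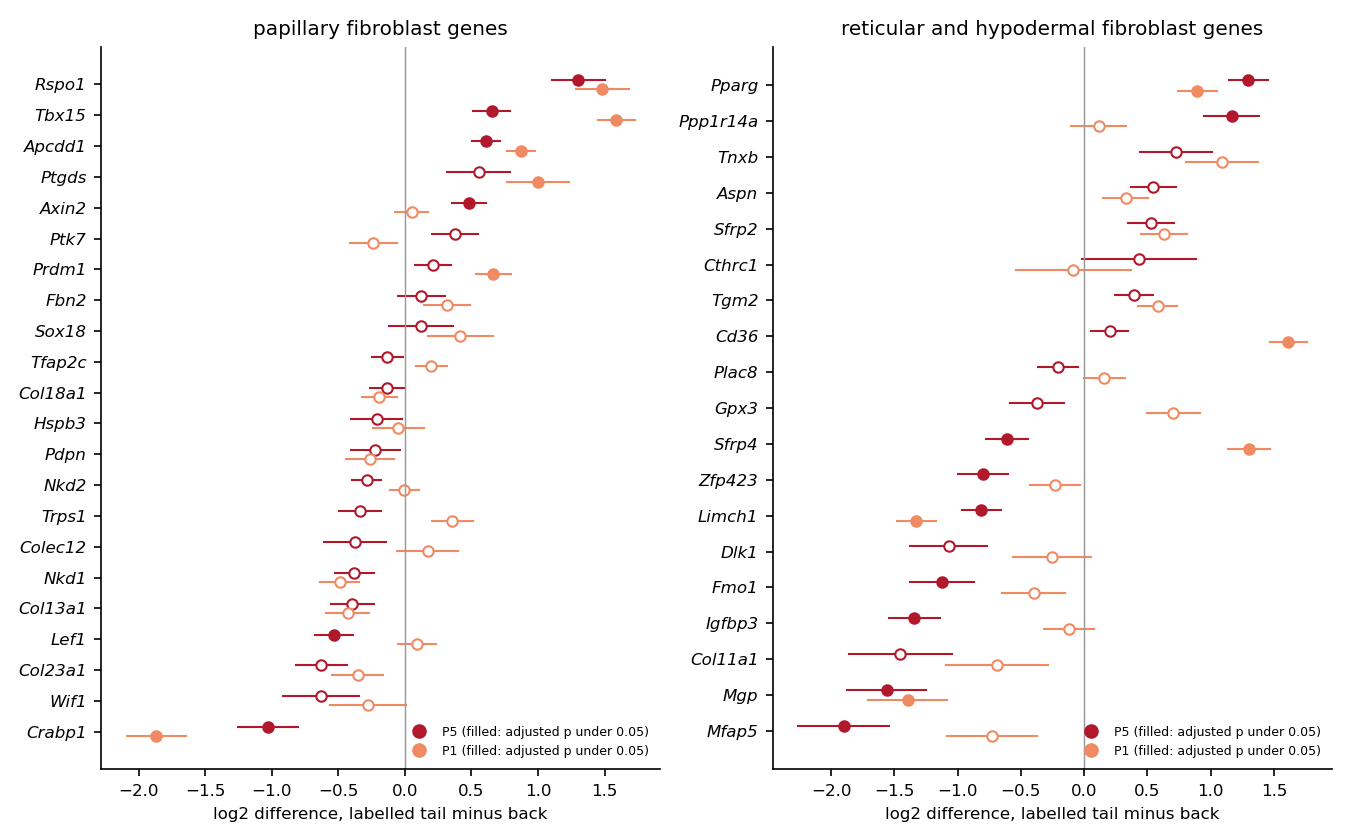
Log2 difference of arrays labelled tail minus arrays labelled back for 22 papillary and 19 reticular and hypodermal genes, with bars of 1 SE and P5 and P1 as separate colours. Filled points have an adjusted p under 0.05: 4 papillary genes lie above 0 and 2 below at P5, and 2 reticular genes above and 7 below.

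With age, the papillary list had 1 gene higher and 2 lower in arrays labelled tail, and 1 of each in arrays labelled back. Crabp1 rose by 1.18 ± 0.22 in tail, and Sox18, a factor of vessels and dermal papilla, was lower by -1.25 ± 0.24 in tail and -0.95 ± 0.24 in back. In the reticular list 8 of 19 genes fell with age in tail and 1 rose, led by Dlk1, an inhibitor of fat cell formation, at -1.74 ± 0.31, and Sfrp4, a secreted Wnt antagonist, at -1.50 ± 0.16. In back 1 rose, Cd36, by 0.75 ± 0.15. Of 20 genes of the dermal papilla and dermal sheath, 10 fell in tail with age and none rose, with Prom1 at -1.62 ± 0.19, Lepr at -1.29 ± 0.17 and Tbx18 at -1.10 ± 0.16. In back 1 of the 20 rose and 2 fell. Between the sites, 1 of these genes was higher and 3 were lower in P5 Tail, and 6 were higher and 1 lower in P1 Tail, with Corin, a protease of the dermal papilla, higher by 1.15 ± 0.18 at P5 and 2.13 ± 0.18 at P1. Of 25 pan-fibroblast genes, 5 were higher and 4 lower in P5 Tail, among them Loxl1, a crosslinker of elastin, by 0.89 ± 0.24 and the peptidase Fap by -0.87 ± 0.11, and 1, Col3a1, was higher in P1 Tail by 0.47 ± 0.11, a share near that of all genes. Of 13 genes of adventitial fibroblasts, 2 were lower in P5 Tail, Procr by -0.89 ± 0.20 and Anxa3 by -0.70 ± 0.13, and 2 were higher in P1 Tail.

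Partners of the markers were read as small families, again without the 8 markers themselves. Over all genes 6.91% were called between the sites at P5 and 3.97% at P1. With age 5.30% were called in tail and 4.25% in back. A single call in a family of 12 or 13 genes is near the share of all genes at P5. Among the 6 PDGF ligands and receptors, Pdgfc, a ligand of Pdgfra, was lower in P5 Tail by -1.35 ± 0.30 and in P1 Tail by -1.68 ± 0.30. Pdgfa, another such ligand, was higher in P5 Tail by 0.44 ± 0.11 and fell with age in arrays labelled back by -0.70 ± 0.11. Among 13 genes of the LRIG family and of ErbB receptors and ligands, the receptor Erbb3 was higher in P5 Tail by 0.63 ± 0.15. The ligand Hbegf was lower in P1 Tail by -1.28 ± 0.28 and fell with age in back by -1.60 ± 0.28. Of 11 partners and ligands of alpha8 integrin, nephronectin (Npnt) was lower in P1 Tail by -0.86 ± 0.10. In that comparison Itga8 1427489_at was lower too, as were 2 of 12 keratinocyte genes, with none higher. The part of keratinocytes in the Npnt values was not tested. The basement membrane gene Frem2 was higher in P5 Tail by 1.74 ± 0.14, and Egfl6 was lower by -1.10 ± 0.23. With age 5 of the 11 fell in back, and 2 rose and 2 fell in tail. Of 12 netrins and netrin receptors, the receptor Unc5c alone was called between the sites, at -1.02 ± 0.15 in P5 Tail and -0.99 ± 0.15 in P1 Tail. Of 13 peptidases related to Dpp4 and substrates, Dpp4 itself not counted, Fap was the 1 called between the sites, at P5. Of 6 dermatopontin partners, fibromodulin (Fmod), a collagen-binding proteoglycan, was lower by -2.50 ± 0.38 in P5 Tail and -2.85 ± 0.38 in P1 Tail, opposite in sign to Dpt. Fmod is also a tendon gene: of 8 tendon genes with Fmod among them, 1 was higher and 3 were lower in P5 Tail, and 2 were lower in P1 Tail. Mkx, a transcription factor of tendon, was lower by -1.56 ± 0.35 in P5 Tail and -2.61 ± 0.35 in P1 Tail. The mean of the 8 was -0.40 to -0.01 in P5 Tail, -0.0041 to 1.33 in P5 Back, -0.56 to -0.45 in P1 Tail and 0.14 to 1.95 in P1 Back, and the part of tendon cells in the Fmod values was not tested.

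The markers were also set beside each other over the 12 arrays, as a description in which the points share labelled site and age. Lrig1 ran with Dpt (Pearson r = 0.69) and Dpp4 (r = 0.66), Pdgfra with Thy1 (r = 0.78) and Ntn1 with Cd34 (r = 0.76). Dpp4 ran opposite to Pdgfra (r = -0.65) and to Itga8 (r = -0.58). The genes most like each marker among the 18193 were Lrrn3, Tanc2 and Dst for Lrig1 (r = 0.95 each), Adh7, Hoxb5 and Lrat for Dpp4 (r = 0.91 to 0.93), and Ch25h, Oip5 and Cdon for Itga8 (r = 0.89 to 0.94). For Ntn1 they were Ilk, Extl3 and Prex1 (r = 0.94 to 0.98), for Pdgfra Septin6, Gjc1 and Samhd1 (r = 0.93 to 0.95), and for Thy1 Crip1, Tfcp2 and Col6a2 (r = 0.92 to 0.93). For Cd34 they were Mmp14, Lrrc8c and Dusp3 (r = 0.91 each), and for Dpt Cav1, Aldh1a1 and St6gal2 (r = 0.96 to 0.98). With 18193 genes and 12 arrays, high values arise for many genes.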

How the data were processed

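RNA of mouse dermis was measured on 12 arrays, 3 for each labelled group. RMA normalisation was run by the authors in GeneSpring (13X, per the labels). The deposited log2 values are centred on the median of each probe set, so signal over background cannot be given, and precision is limited by how few arrays there are. No source gives the log base, which was taken as that of RMA. The methods' filter on the lowest values was not repeated, as centred values hold no levels. Of 45101 probe sets, 64 controls were left out and 45037 tested. Genes were named from the 34945 probe sets with 1 symbol and averaged into 18193 genes. All 12 arrays were fitted together with limma 3.58.1 in R 4.3.3, Benjamini-Hochberg adjustment was run over all probe sets or all genes, and the threshold was 0.05. P-values set each difference against the spread between these arrays, which the fit pooled over all groups. The median SD of the marker probe sets was 0.34 in P5 Tail, 0.17 in P5 Back, 0.25 in P1 Tail and 0.14 in P1 Back. The fit was tested on simulated data. Markers and lists were chosen with earlier results of these data known. Every marker was named, and from each list up to 3 called genes of largest difference per comparison. Alternatives were array weights, centring, robust variances, a replicate block, only the compared arrays, leaving out arrays or probe sets of shared sequence, gene averages and the methods' t-test.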

Additional observations from a re-analysis of the deposited data

Results flagged for a closer look

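The site difference of Lrig1 1449893_a_at was larger at P5 than at P1 by 0.90 on the log2 scale (SE 0.19, limma adjusted p = 0.030), and this test of the difference itself is why it is listed. The site differences were 1.27 at P5 and 0.37 at P1. The other 2 Lrig1 probe sets had interactions of 0.79 and 0.63 with no call. Of 12 keratinocyte genes, 5 had a called interaction in the same direction and none in the other, beside 2.87% of all genes called. The part of keratinocyte genes in the value was not tested.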

How the results depend on the processing

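The P5 site calls of the 3 Lrig1 probe sets and the P1 call of Dpt held without any 1 of the 6 arrays compared and with the replicate block, though Lrig1 1419928_at missed the threshold with only the compared arrays (adjusted p = 0.053). The counts of called marker probe sets (3 for site at P1, 6 for site at P5, 1 for age in back, 0 for age in tail and 1 for the interaction) were unchanged by centring each array and by robust variances. Array weights gave 5 at P1, 4 at P5, where Dpt (adjusted p = 0.060) and Dpp4 1459973_x_at (adjusted p = 0.17) were lost, 5 in back and 2 for the interaction. Fitting only the compared arrays gave 2 at P5 and 3 in back. Leaving out probe sets of shared sequence gave 3 at P5, 0 in back and 0 for the interaction. This took out Lrig1 1434210_s_at and 1449893_a_at and Dpp4 1459973_x_at themselves. Every called probe set that stayed in kept its call. Gene averages, counted over the 8 genes, gave 1 at P1, 3 at P5 and 0 in back. Without P1 Back 1 and 6, which leaves 1 array in that group and fewer to set the spread, the counts were 0 at P1, 3 at P5 (the Lrig1 probe sets), 0 in back and 0 for the interaction. The methods' t-test gave, unadjusted, 6 at P1, 6 at P5, 8 in back and 2 in tail. Of all 45037 probe sets it called 7993, 4696, 7366 and 3855 in these comparisons. After Benjamini-Hochberg adjustment it gave 0 in each of the 4 comparisons, where 3, 5, 32 and 1 of all probe sets were called. It was not run for the interaction. Without 1 array each, the ranges were 1 to 2 at P1, 3 to 5 at P5, 0 to 3 in back, 0 to 1 in tail and 0 to 2 for the interaction. The 3 at P5 came without P5 Back 1 or P5 Back 2, the 3 in back without P5 Back 1, and the 2 for the interaction without P5 Tail 2 or P5 Back 1. With the replicate block the counts were 1 at P1, 3 at P5 and 0 in back. Same-numbered arrays deviated together weakly. Between the sites, number 5 at P1 and number 2 at P5 were each other's best match (correlations 0.23 and 0.21). Number 6 at P1 and number 3 at P5 were not (0.0093 and -0.053). Back number 1 and tail number 4 join arrays of different ages (0.13 and -0.13). Whether same-numbered tail and back arrays share a mouse could not be decided from this, and the main fit took none as pairs. Of 1175 results for single probe sets under alternatives, 53 lost their call, 18 gained one, 9 uncalled differences moved by over 1 SD and no call reversed. The cause of these shifts was not tested.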
